A study of Mus musculus with 16 samples.

Results

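A group of 8 chemokine ligand genes was followed through 16 expression arrays of mouse regulatory T cells (Treg). These were Ccl3, Ccl4, Ccl5, Ccl22, Ccl1, Xcl1, Cxcl2 and Cxcl3. A gene was read from a probe set annotated with its symbol alone, taking the brightest over the 16 arrays where a gene had several. Each of the 8 genes had 1 such probe set, and together they are 8 of the 19938 genes measured. The Treg came from the pooled lymph nodes of female C57BL/6 mice of 8 to 12 weeks, labelled wild type. They were sorted by surface CD103, an integrin chain, and ICOS, a costimulatory receptor, into 4 subsets: CD103neg ICOSneg, CD103pos ICOSneg, CD103neg ICOSpos and CD103pos ICOSpos. RNA was taken directly from the sorted cells (fresh) or after 3 days in a suppression assay (activated). In the assay 200000 Treg of 1 subset shared a well with 1000000 Ly5.1 congenic naive CD4 cells, 2000000 irradiated Rag2-/- splenocytes and soluble anti-CD3 antibody at 0.5 ug/ml. The activated Treg were then recovered by sorting Ly5.1neg CD4pos CD25pos cells. Each of the 8 groups had 2 arrays, labelled as biological replicates, hybridised with label made from 270 ng of total RNA. Because the activated cells were cultured with other cells and sorted again, and the fresh cells were not, activation, culture and re-sorting cannot be told apart here.

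Chemokines are small secreted proteins that direct the migration of cells carrying their receptors, and most bind receptors coupled to G proteins. T cells and myeloid cells release many of them within hours of antigen receptor or innate signals, often under control of NF-kappaB and NFAT. Ccl3, Ccl4 and Ccl5 are inflammatory chemokines that attract monocytes and T cells, and Ccl3 and Ccl5 bind CCR1. Ccl22 binds CCR4 and Ccl1 binds CCR8, receptors that many effector Treg carry themselves. Xcl1 attracts XCR1-bearing dendritic cells, and Cxcl2 and Cxcl3 attract neutrophils through CXCR2.

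Promoter sequences were read for 6 of the 8 genes from RefSeq on the GRCm38.p6 build, and Ccl4 and Ccl5 were not matched. The 200 bases before the annotated start are shown for 4 genes, 5′ to 3′ on the gene's own strand. Cxcl3 and Cxcl2 are shown because they act on the same receptor, lie on the same chromosome and passed for ICOS in activated cells, Ccl1 because its highest group mean was in fresh cells, and Ccl3 because it had the largest difference on activation of the 8. Capitals mark matches to the NF-kappaB consensus.
Cxcl3: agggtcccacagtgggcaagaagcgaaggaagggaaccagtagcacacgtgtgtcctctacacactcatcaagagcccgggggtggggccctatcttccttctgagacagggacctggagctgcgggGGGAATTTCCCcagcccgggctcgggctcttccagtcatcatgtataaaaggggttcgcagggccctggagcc
Cxcl2: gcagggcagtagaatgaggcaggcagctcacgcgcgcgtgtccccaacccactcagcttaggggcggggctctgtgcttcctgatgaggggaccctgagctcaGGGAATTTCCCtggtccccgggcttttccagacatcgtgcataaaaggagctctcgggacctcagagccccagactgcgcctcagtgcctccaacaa
Ccl1: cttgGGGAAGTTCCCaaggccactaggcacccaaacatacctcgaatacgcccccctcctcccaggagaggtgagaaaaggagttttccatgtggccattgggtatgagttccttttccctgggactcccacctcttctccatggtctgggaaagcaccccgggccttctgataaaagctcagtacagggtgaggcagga
Ccl3: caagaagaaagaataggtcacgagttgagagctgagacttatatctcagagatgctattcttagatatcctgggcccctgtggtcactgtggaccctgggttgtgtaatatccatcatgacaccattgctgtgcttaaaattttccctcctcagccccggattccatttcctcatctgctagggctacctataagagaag
The stretches lie at chr5:90785901-90786100 on the plus strand for Cxcl3 and chr5:90903699-90903898 on the plus strand for Cxcl2. Those of Ccl1 and Ccl3 lie at chr11:82179813-82180012 and chr11:83649379-83649578, both on the minus strand. In the 250 bases before the start, searched on both strands, the kappaB consensus was found in 3 of the 6 genes. It ended 63 bases before the start in Cxcl3, 87 bases before it in Cxcl2 and 186 bases before it in Ccl1. It was found in 7.25% of 32851 RefSeq promoter windows of that length. In Cxcl3 and Cxcl2 the consensus match had the same form, GGGAATTTCC, so this is the same site and not a further one. The form was read from the Cxcl3 promoter and then counted, so its presence there was given. It occurs in 28 of the 32851 windows (0.0852%). The AP-1 motif TGANTCA (6.75% of windows) occurred in none of the 6. The core GGAAA, which can lie within other motifs, occurred in Ccl1, Ccl3, Xcl1, Cxcl2 and Cxcl3 and in 55.6% of windows. These matches describe letters in the reference and were not tested as binding sites.

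Activated CD103neg ICOSpos replicate 2 stood apart from the other arrays. On it the log2 level of Foxp3, the transcription factor that defines Treg, was 8.53, against 12.64 on its partner and 11.69 to 12.84 on the other 14 arrays. Itgae, the CD103 gene, read 6.30 on it, below the 7 other activated arrays (7.31 to 11.18). A low Itgae level goes with the CD103neg label of this array. Its partner, also labelled CD103neg, read above both activated CD103pos ICOSneg arrays (9.94 and 9.87). The activated CD103neg ICOSneg arrays read 7.31 and 7.95. Fits on 15 arrays hold only this partner for activated CD103neg ICOSpos cells. Between the 2 arrays of that group 685 genes differed by more than 2-fold, against 24 to 413 between the arrays of any other group. The mean level of 9 CD8 and NK cell markers was 6.35 on this array and 5.15 to 5.82 on the other 15. This mean was carried by Klrd1 (10.47, and 4.31 to 8.33 elsewhere) and Klrk1 (8.36, and 4.78 to 6.67 elsewhere), while Cd8a (6.11) and Cd8b1 (8.62) lay within the range of the other arrays. Tests that use this array are given with all 16 arrays and with the 15 that leave it out, and the level on its partner stands beside it. Levels are deposited log2 intensities, which include background and can be set against each other across arrays for 1 gene, not between genes. Differences are in log2 units, with the standard error from limma fitted to all 19938 genes, and passing means an adjusted p (Benjamini-Hochberg over all genes) below 0.05. The errors measure the spread between the 2 replicates of a group, pooled over groups. In these bulk samples more cells making a message and more message per cell cannot be told apart.

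Ccl3, Ccl4, Ccl22 and Cxcl3 rose on activation and Ccl5 and Xcl1 fell, when the difference was averaged over the 4 subsets. That is 6 of the 8 ligands, where 31.2% of all genes passed. On 15 arrays 5 of the 8 passed, without Ccl4, where 30.7% of all genes passed. The median difference of the 8 was 0.65, against -0.0032 over all genes. Ccl1 (-0.31 ± 0.28, adjusted p = 0.483) and Cxcl2 (0.08 ± 0.11, adjusted p = 0.672) did not pass, nor on 15 arrays (adjusted p = 0.887 and 0.512). The arrays of the states did not overlap for 1 of the 8, Ccl3, and for 7.12% of all genes (on 15 arrays the same 1 and 10.4%). Over 16 fits that each omitted 1 array, Ccl3, Ccl5 and Cxcl3 passed in 16, but Ccl4 in 6 (differences 0.91 to 1.69), Ccl22 in 5 (0.92 to 1.52) and Xcl1 in 3 (-0.86 to -0.50). Their adjusted p reached 0.0778, 0.0933 and 0.0969. The activated arrays also had lower B cell markers (mean of 8 genes 5.33 to 5.78, fresh 5.82 to 6.79). The mean of 17 myeloid markers was mostly lower on them (5.67 to 6.05, fresh 5.92 to 6.70). Of these 17 genes 1 passed as higher and 7 as lower (median -0.12), and 6 had a positive difference. Cybb read 8.11 or more on fresh arrays and 6.82 or less on activated ones. Cd68 ranged from 6.80 to 8.19 on fresh arrays and from 7.56 to 9.31 on activated ones. Of 9 activated conventional CD4 markers 5 were higher and 2 lower (median 0.81), and of 11 naive and central T cell markers 1 was higher and 5 lower (median -0.60). The part of these cells in the differences was not tested.

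**Figure D1:**
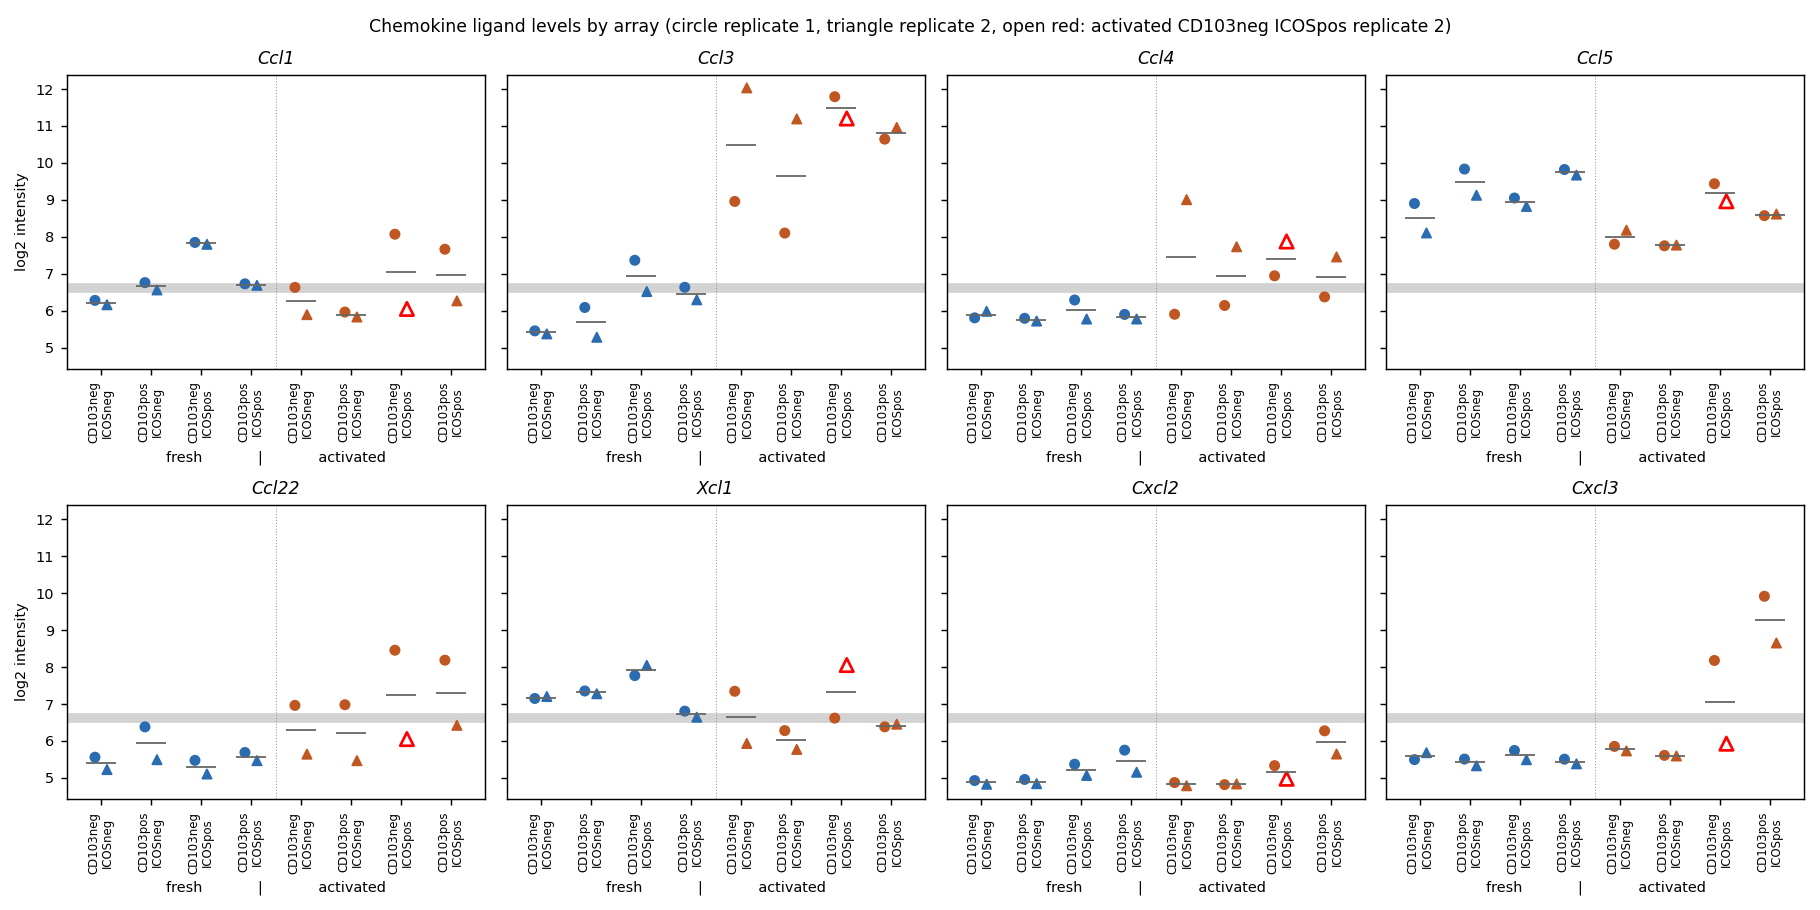
Log2 intensity (vertical axis) of the 8 ligands, 1 panel a gene, on the 2 arrays (circle replicate 1, triangle replicate 2) of the 4 subsets, fresh in blue and activated in brown, with group means as lines, the array medians over all genes as a grey band, and activated CD103neg ICOSpos replicate 2 as an open red triangle. Ccl3 lies at 5.28 to 7.36 on fresh arrays and 8.10 to 12.03 on activated ones, while Cxcl3 exceeds 8 on 3 activated ICOSpos arrays only.

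Ccl3, which attracts monocytes, NK cells and T cells, had the largest rise. Its fresh levels were 5.45 and 5.37 in CD103neg ICOSneg cells, 6.09 and 5.28 in CD103pos ICOSneg, 7.36 and 6.52 in CD103neg ICOSpos and 6.63 and 6.29 in CD103pos ICOSpos. Its activated levels in the same order of subsets were 8.96 and 12.03, 8.10 and 11.19, 11.79 and 11.20, and 10.64 and 10.96. All 8 activated arrays lay above all 8 fresh ones, and replicate 2 lay about 3 units above replicate 1 in both activated ICOSneg groups. The mean difference over subsets was 4.48 ± 0.49 (22.4-fold, adjusted p = 3.62e-05), and it was 3.49 in replicate 1 and 5.48 in replicate 2. On 15 arrays it was 4.56 ± 0.53 (adjusted p = 8.67e-05). Ccl3 passed in each of the 4 subsets on all 16 arrays, with differences from 3.96 to 5.08, and in 3 of them on 15 arrays (adjusted p = 0.00562 in CD103neg ICOSneg, 0.0174 in CD103pos ICOSneg and 0.0161 in CD103pos ICOSpos cells). In CD103neg ICOSpos cells the difference of 4.56 (adjusted p = 0.0417) became 4.85 (adjusted p = 0.0944) without the array that stood apart, and it held in 4 of the 16 leave-one-array-out fits. In CD103pos ICOSneg cells the call ended without replicate 2 of either state (adjusted p up to 0.130). Activated CD103neg ICOSpos cells had the highest mean, 11.50, and did not overlap activated CD103pos ICOSpos cells at 10.80. The means of the other activated groups were 10.49 in CD103neg ICOSneg and 9.65 in CD103pos ICOSneg cells, and neighbours among these last 3 overlapped. Among fresh groups the ICOSpos subsets, at 6.94 and 6.46, lay above the ICOSneg subsets, at 5.68 and 5.41, without overlap.

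Ccl4, a close relative of Ccl3 and its neighbour in the genome, was dim in fresh cells. Its levels there were 5.81 and 5.98 in CD103neg ICOSneg cells, 5.79 and 5.72 in CD103pos ICOSneg, 6.29 and 5.77 in CD103neg ICOSpos and 5.90 and 5.77 in CD103pos ICOSpos. After activation they were 5.90 and 9.005, 6.14 and 7.73, 6.94 and 7.87, and 6.37 and 7.45. Replicate 2 was the higher array in all 4 activated groups, and Ccl4 exceeded the median gene on 5 arrays, all of them activated. The mean difference was 1.30 ± 0.41 (2.46-fold, adjusted p = 0.0317), and it was 0.39 in replicate 1 and 2.20 in replicate 2. It became 1.18 ± 0.44 (adjusted p = 0.0661) on 15 arrays. The activated group means, 7.45, 7.41, 6.93 and 6.91, overlapped as neighbours in their order, and so did the fresh ones, 5.76 to 6.03. The highest Ccl4 value, 9.005, was on activated CD103neg ICOSneg replicate 2, as was that of Ccl3 (12.03). Klrd1 (8.33) and Klrk1 (6.67) were higher there than on its partner (5.19 and 4.98), while Cd8a (5.87) and Cd8b1 (8.59) were not. The part of any other cell type in these levels was not tested.

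Ccl5, made in quantity by memory and effector T cells, fell in the average over subsets but not in every subset. Its fresh levels were 8.90 and 8.10 in CD103neg ICOSneg cells, 9.83 and 9.12 in CD103pos ICOSneg, 9.05 and 8.82 in CD103neg ICOSpos and 9.82 and 9.67 in CD103pos ICOSpos. Its activated levels were 7.80 and 8.18, 7.76 and 7.78, 9.44 and 8.96, and 8.57 and 8.61. It lay above the median gene on all 16 arrays. Activated CD103pos ICOSneg cells had its lowest mean, 7.77, apart from every other group by a gap of only 0.02. Averaged over subsets Ccl5 fell by 0.78 ± 0.14 (adjusted p = 0.00118), and by 0.72 ± 0.14 on 15 arrays (adjusted p = 0.00285). Within subsets it fell by 1.71 ± 0.28 in CD103pos ICOSneg cells (adjusted p = 0.00123) and by 1.15 ± 0.28 in CD103pos ICOSpos cells (adjusted p = 0.0193). On 15 arrays their adjusted p were 0.00115 and 0.0169. The second of these held in 12 of the 16 leave-one-array-out fits and lost its call without any of the 4 arrays of that subset (adjusted p up to 0.0993). In CD103neg ICOSneg cells the difference was -0.51 ± 0.28 (adjusted p = 0.273), with -1.10 in replicate 1 and 0.07 in replicate 2. In CD103neg ICOSpos cells it was 0.26 ± 0.28 (adjusted p = 0.800), and 0.50 on 15 arrays. The CD103pos subsets held the 2 highest fresh means, 9.75 and 9.48, and overlapped each other.

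Ccl22, which draws CCR4-bearing T cells and is best known from dendritic cells, lay below the median gene on every fresh array. Its fresh levels were 5.56 and 5.23 in CD103neg ICOSneg cells, 6.38 and 5.49 in CD103pos ICOSneg, 5.47 and 5.11 in CD103neg ICOSpos and 5.69 and 5.47 in CD103pos ICOSpos. Activated levels were 6.96 and 5.64, 6.98 and 5.47, 8.46 and 6.05, and 8.19 and 6.42. Replicate 1 was the higher array in every group, by 1.32 to 2.40 after activation, and 4 arrays exceeded the median gene. The mean rise was 1.22 ± 0.40 (2.33-fold, adjusted p = 0.0388), with 1.87 in replicate 1 and 0.57 in replicate 2. Without the array that stood apart it was 1.52 ± 0.34 (adjusted p = 0.00567). All neighbours in the order of the 8 groups overlapped, from activated CD103pos ICOSpos at 7.31 down to fresh CD103neg ICOSpos at 5.29.

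Ccl1, a product of activated T cells that attracts CCR8-bearing cells, had its highest mean in a fresh subset. Fresh cells read 6.28 and 6.16 in CD103neg ICOSneg cells, 6.76 and 6.56 in CD103pos ICOSneg, 7.85 and 7.80 in CD103neg ICOSpos and 6.73 and 6.69 in CD103pos ICOSpos. Activated levels were 6.63 and 5.89, 5.96 and 5.83, 8.07 and 6.05, and 7.66 and 6.27. Fresh CD103neg ICOSpos cells lay above the other 3 fresh subsets without overlap, as they did for 2 of the 8 ligands (Ccl1 and Xcl1) and 6.21% of all genes. In activated cells replicate 1 was the higher array in all 4 groups. The group means ran from 7.82 in fresh CD103neg ICOSpos cells through activated CD103neg ICOSpos (7.06), activated CD103pos ICOSpos (6.96), fresh CD103pos ICOSpos (6.71) and fresh CD103pos ICOSneg (6.66) to activated (6.26) and fresh (6.22) CD103neg ICOSneg cells. Neighbours in this order overlapped except the last, activated CD103pos ICOSneg at 5.90. Its arrays (5.96 and 5.83) still overlapped those of activated CD103neg ICOSneg cells (6.63 and 5.89). The activated conventional CD4 marker list, a mean of 9 genes, was also higher in fresh CD103neg ICOSpos cells, at 7.41 and 7.48, than on the other fresh arrays, at 6.13 to 6.39. Its part in the Ccl1 level was not tested.

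Xcl1, made chiefly by CD8 T and NK cells, also had its highest mean in fresh CD103neg ICOSpos cells. Before activation it read 7.15 and 7.20 in CD103neg ICOSneg cells, 7.35 and 7.28 in CD103pos ICOSneg, 7.77 and 8.05 in CD103neg ICOSpos and 6.81 and 6.64 in CD103pos ICOSpos. Activated levels were 7.34 and 5.93, 6.28 and 5.77, 6.62 and 8.06, and 6.38 and 6.45. The highest of all 16 values, 8.06, was on the array that stood apart, and its partner read 6.62. Klrd1 and Klrk1 were also highest on that array, Cd8a and Cd8b1 were not, and the cells had been sorted as CD4pos. Activated CD103neg ICOSneg replicate 2 had the next highest Klrd1 (8.33) and Klrk1 (6.67), and Xcl1 read 5.93 on it. The part of any other cell type in the Xcl1 level was not tested. The mean difference fell by 0.68 ± 0.23 (adjusted p = 0.0433), and by 0.86 ± 0.19 without that array (adjusted p = 0.00483). In CD103pos ICOSneg cells it fell by 1.29 ± 0.35 on 15 arrays (adjusted p = 0.0241), while on 16 arrays the value of -1.29 had an adjusted p of 0.0741. In the order of means fresh CD103neg ICOSpos (7.91), activated CD103neg ICOSpos (7.34) and fresh CD103pos ICOSneg (7.32) overlapped as neighbours. Activated CD103pos ICOSneg cells, at 6.03, lay below every other mean and did not overlap activated CD103pos ICOSpos cells. They did overlap activated CD103neg ICOSneg cells, at 7.34 and 5.93.

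Cxcl3, a neutrophil attractant, rose in activated ICOSpos cells. Its fresh levels were 5.50 and 5.68 in CD103neg ICOSneg cells, 5.51 and 5.33 in CD103pos ICOSneg, 5.74 and 5.49 in CD103neg ICOSpos and 5.51 and 5.38 in CD103pos ICOSpos. Activated levels were 5.85 and 5.73, 5.61 and 5.59, 8.18 and 5.93, and 9.92 and 8.65. Only 3 arrays exceeded the median gene, those of activated CD103pos ICOSpos cells and replicate 1 of activated CD103neg ICOSpos cells, and the partner of the latter, at 5.93, is the array that stood apart. Averaged over subsets the rise was 1.42 ± 0.28 (adjusted p = 0.00238), and 1.70 ± 0.16 on 15 arrays (adjusted p = 2.14e-05). It was 3.84 ± 0.56 in CD103pos ICOSpos cells (adjusted p = 0.00139, and 4.90e-05 on 15 arrays). In CD103neg ICOSpos cells the difference was 1.44 ± 0.56 on 16 arrays (adjusted p = 0.288) and 2.56 ± 0.37 on 15 (adjusted p = 0.00821). Activated CD103pos ICOSpos cells, at a mean of 9.28, lay above activated CD103neg ICOSpos cells, at 7.05, without overlap. The latter lay above all other groups, at 5.42 to 5.79, also without overlap. At this second step the array that stood apart (5.93) cleared the next array (5.85) by only 0.07.

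Cxcl2, which acts on the same receptor as Cxcl3, stayed below the median gene on all 16 arrays. Fresh arrays held 4.93 and 4.83 in CD103neg ICOSneg cells, 4.96 and 4.84 in CD103pos ICOSneg, 5.37 and 5.07 in CD103neg ICOSpos and 5.75 and 5.15 in CD103pos ICOSpos. Activated levels were 4.87 and 4.79, 4.82 and 4.84, 5.33 and 4.98, and 6.27 and 5.65. In both states the ICOSpos arrays lay above all ICOSneg arrays, unlike Cxcl3, whose fresh arrays overlapped between all subsets. The 4 ICOSpos groups, with means of 5.15 to 5.96, overlapped as neighbours, and so did the 4 ICOSneg groups at 4.83 to 4.90. Whether the probe sets of the related Cxcl2 and Cxcl3, or of Ccl3 and Ccl4, read each other's message was not tested.

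**Figure D2:**
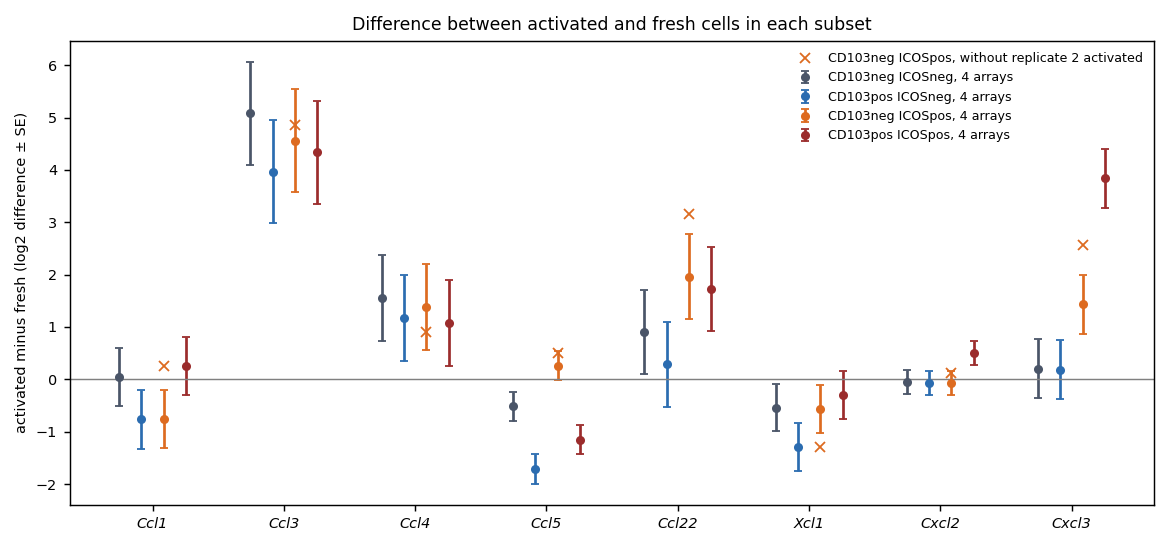
Activated minus fresh log2 difference (vertical axis) of each ligand (horizontal axis) in each subset, with the standard error from limma as bars, and crosses for CD103neg ICOSpos cells without the array that stood apart. Ccl3 lies at 3.96 to 5.08 in the 4 subsets, and Ccl5 is lower by 1.71 and 1.15 in the CD103pos subsets.

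Within single subsets fewer ligands passed on activation than in the average. In CD103neg ICOSneg cells 1 of 8 passed, Ccl3, where 16.2% of all genes passed (17.2% on 15 arrays, the same 1 ligand). In CD103pos ICOSneg cells Ccl3 and Ccl5 passed, 2 of 8 against 20.2% of all genes, and Xcl1 joined them on 15 arrays, where 21.1% passed. In CD103neg ICOSpos cells 1 passed, Ccl3, against 2.09% of all genes, and on 15 arrays Cxcl3 passed in its place, against 1.62%. The Ccl22 difference there was 1.96 (adjusted p = 0.311) on 16 arrays and 3.17 (adjusted p = 0.0857) on 15. In CD103pos ICOSpos cells Ccl3, Ccl5 and Cxcl3 passed, 3 of 8 against 14.1%, and on 15 arrays the same 3 against 14.8%. The calls of Ccl3 and Ccl5 in that subset ended without any 1 of its 4 arrays, while that of Cxcl3 held in 16 of 16 such fits.

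In fresh cells no ligand passed for ICOSpos against ICOSneg, where limma called 6.53% of all genes (7.81% on 15 arrays, also 0 of 8), and 1 of the 8, Cxcl2, had an unadjusted p below 0.05. The differences were 0.82 ± 0.39 for Ccl1 (adjusted p = 0.301), 1.15 ± 0.69 for Ccl3 (adjusted p = 0.425) and 0.45 ± 0.16 for Cxcl2 (adjusted p = 0.149). Their adjusted p on 15 arrays were 0.0906, 0.443 and 0.137. Fresh ICOSpos and ICOSneg arrays did not overlap for 2 of the 8, Ccl3 and Cxcl2, and for 13.1% of all genes. Fitted to the 8 fresh arrays alone, where the spread of the activated arrays does not enter, Ccl1 (0.82 ± 0.08, adjusted p = 8.05e-04) and Ccl3 (1.15 ± 0.24, adjusted p = 0.0270) passed, 2 of 8 against 8.81% of all genes. For CD103pos against CD103neg in fresh cells 0 of 8 passed in limma, against 0.206% of all genes (0.792% on 15 arrays, also 0). The 1 ligand at an unadjusted p below 0.05 was Ccl5, higher by 0.89 ± 0.20 (adjusted p = 0.138, and 0.0730 on 15 arrays). On the fresh arrays alone 1 of 8 passed against 1.34% of genes, Xcl1, which fell by 0.52 ± 0.09 (adjusted p = 0.0455).

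Whether the ICOS difference depended on CD103 was tested as an interaction. In fresh cells limma called 0 of 8 ligands, with 0 at an unadjusted p below 0.05, against 0.0451% of all genes (0.15% on 15 arrays, also 0). On the fresh arrays alone Ccl1 (-1.56 ± 0.15, adjusted p = 0.0190) and Xcl1 (-1.32 ± 0.18, adjusted p = 0.0471) passed, against 0.311% of genes. In CD103neg cells the mean of Ccl1 was 6.22 without and 7.82 with ICOS, and in CD103pos cells 6.66 and 6.71. For Xcl1 these were 7.18 and 7.91, and 7.32 and 6.73. In activated cells 0 of 8 passed the interaction in limma, against 0.015% of all genes (0% on 15 arrays, also 0). Cxcl2 and Cxcl3 (2.42 ± 0.80, and 1.30 ± 0.48 on 15 arrays) were the 2 at an unadjusted p below 0.05.

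**Figure D3:**
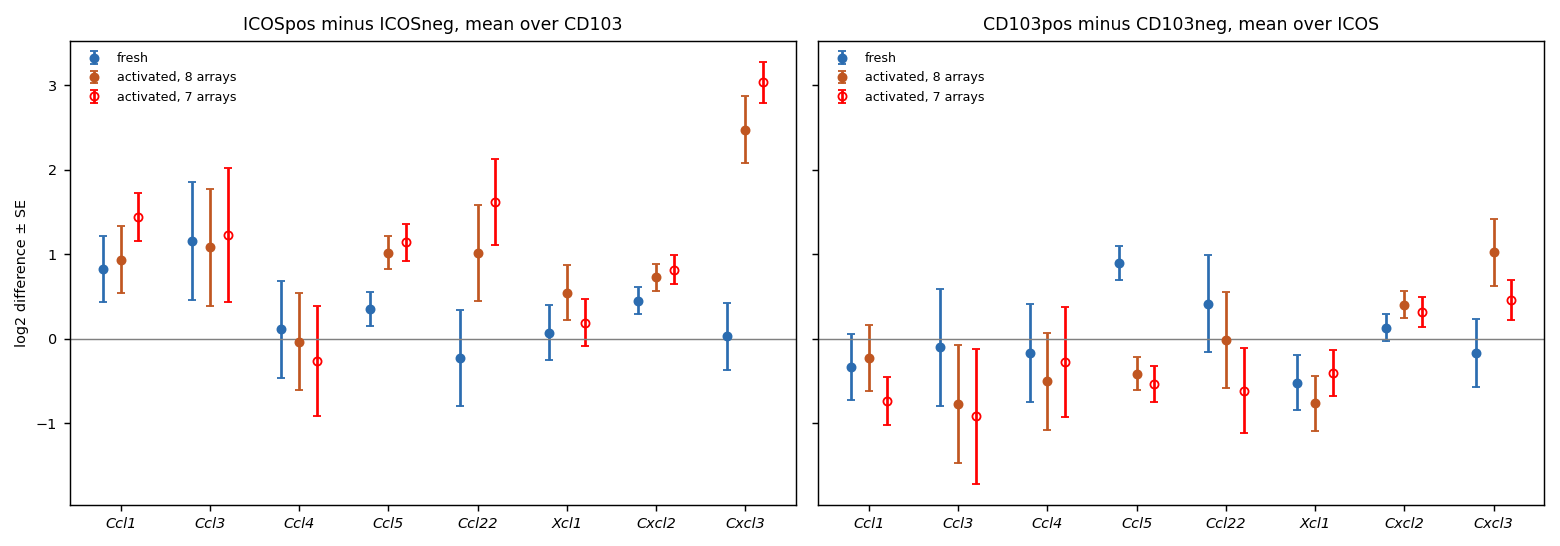
Log2 difference (vertical axis) of each ligand for ICOSpos minus ICOSneg (left) and CD103pos minus CD103neg (right) in fresh cells, in activated cells and in activated cells without the array that stood apart (open red), with the standard error from limma as bars. Cxcl3 stands at 2.47 for ICOS in activated cells and near 0 for ICOS in fresh cells.

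After activation Ccl5, Cxcl2 and Cxcl3 were higher in ICOSpos than in ICOSneg cells. These are 3 of 8, where 6.94% of all genes passed. Cxcl3 was higher by 2.47 ± 0.40 (adjusted p = 0.00691), Ccl5 by 1.02 ± 0.20 (adjusted p = 0.0146) and Cxcl2 by 0.73 ± 0.16 (adjusted p = 0.0229). On 15 arrays these became 3.04 ± 0.24 (adjusted p = 1.20e-04), 1.14 (adjusted p = 0.0133) and 0.82 (adjusted p = 0.0229), where 6.65% of genes passed. Ccl1 passed on 15 arrays as well, higher by 1.44 ± 0.29 (adjusted p = 0.0166), against 0.93 on 16 (adjusted p = 0.212). Ccl22 read 1.02 (adjusted p = 0.386), and 1.62 on 15 arrays (adjusted p = 0.0925). The Ccl5 call ended without replicate 1 of activated CD103neg ICOSneg cells or replicate 2 of activated CD103pos ICOSpos cells (adjusted p up to 0.0545), and the Cxcl2 call in 6 of 16 such fits. Fitted to the 8 activated arrays alone, where limma called 2.22% of all genes, 1 of the 8 passed, Ccl5 (adjusted p = 0.0340), and the calls of Cxcl3 (adjusted p = 0.0587) and Cxcl2 (adjusted p = 0.0629) were lost. Activated ICOSpos and ICOSneg arrays did not overlap for 3 of the 8, Ccl5, Cxcl2 and Cxcl3, and for 10.9% of all genes (the same 3 and 17.7% without the array that stood apart). In the 4 activated ICOSpos arrays the activated conventional CD4 markers averaged 7.26 to 8.71, against 6.43 to 7.55 on the ICOSneg ones, and their part in these differences was not tested.

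For CD103 in activated cells limma passed 0 of 8 ligands, against 0.717% of all genes (0.361% on 15 arrays, also 0). Xcl1 (-0.77), Cxcl2 (0.40) and Cxcl3 (1.02) had unadjusted p below 0.05, and their differences on 15 arrays were -0.41, 0.31 and 0.46. The ICOS difference itself differed between the states for 1 ligand of 8, Cxcl3, where 6.72% of all genes passed. It was larger by 2.45 ± 0.56 in activated cells (adjusted p = 0.0263), and by 3.01 ± 0.32 on 15 arrays (adjusted p = 5.11e-04), where Cxcl3 was again the 1 ligand and 5.92% of genes passed. This call held in 5 of the 16 fits that left out 1 array, with adjusted p up to 0.0691. The CD103 difference changed between states for 0 of 8 in limma, against 0.296% of genes (0.321% on 15 arrays, also 0). Ccl5 alone had an unadjusted p below 0.05 there (-1.31 ± 0.28, adjusted p = 0.0891, and 0.0883 on 15 arrays).

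The replicates of activated cells differed in a like direction for several ligands. Replicate 1 lay above replicate 2 in all 4 activated groups for Ccl1, Ccl22 and Cxcl3, and below it in all 4 for Ccl4. The same sign in all 4 groups was seen for 4 of 8 ligands and for 25.7% of all genes. For Cxcl3 the gap was 0.02 in CD103pos ICOSneg cells, so its sign there carries little.

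**Figure D4:**
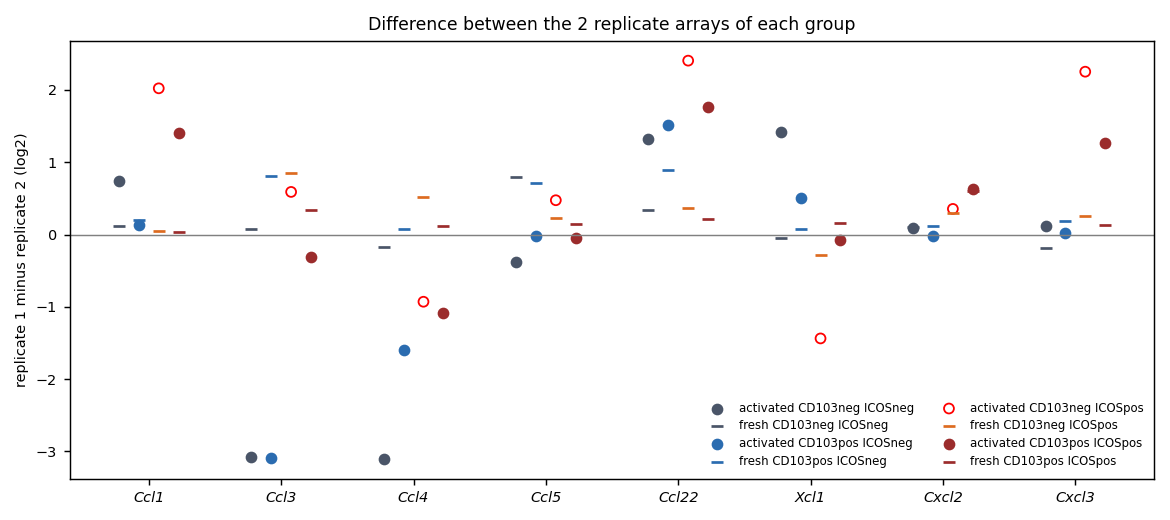
Replicate 1 minus replicate 2 in log2 units (vertical axis) for each ligand, with circles for activated groups, dashes for fresh groups and open red circles for activated CD103neg ICOSpos cells. All 4 circles of Ccl22 lie between 1.32 and 2.40, and all 4 of Ccl4 lie below 0.

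Among 9 measured receptors of these ligands, 3 rose and 1 fell on activation averaged over subsets (median 0.17), where 31.2% of all genes passed. Ccr8, the Ccl1 receptor, rose by 1.69 ± 0.16 (adjusted p = 1.07e-05), from 8.42 to 10.97 on fresh arrays to 11.19 to 12.00 on 7 activated arrays, with 9.83 on the array that stood apart. Ccr1, a receptor of Ccl3 and Ccl5, rose by 0.87 (adjusted p = 0.0287). Its activated replicates read 5.14 and 6.48, 5.54 and 6.92, 6.54 and 5.11, and 6.44 and 7.06 in the order of subsets used above. Cxcr2, the receptor of Cxcl2 and Cxcl3, rose by 0.40 (adjusted p = 0.0180). It lay below the median gene on all 16 arrays, at 4.29 to 5.75. Its mean was 5.54 in activated CD103pos ICOSpos cells and 4.39 to 4.72 in the other groups. Xcr1, the Xcl1 receptor, fell by 0.43 (adjusted p = 8.51e-04). Ccr4, the Ccl22 receptor, differed by 0.53 (adjusted p = 0.264) on 16 arrays and 0.86 (adjusted p = 0.00256) on 15, which made 4 higher and 1 lower. Ccr3 (-0.19), Cxcr1 (0.17) and the scavenging receptors Ackr1 (0.04) and Ackr2 (0.07) did not pass. The Ccr3 average joins opposite directions. Its mean went from 5.27 to 6.01 in CD103neg ICOSneg and from 5.34 to 7.16 in CD103pos ICOSneg cells. It went from 6.98 to 6.05 in CD103neg ICOSpos and from 8.92 to 6.53 in CD103pos ICOSpos cells. For the ICOS difference between states 2 of the 9 receptors were lower, where 6.72% of all genes passed. In fresh cells 4 of the 9 receptors were higher with ICOS, where 6.53% of all genes passed: Ccr3 by 2.65 (adjusted p = 0.00321), Ccr4 by 2.42 (adjusted p = 0.00882), Ccr8 by 1.60 (adjusted p = 0.00134) and Xcr1 by 0.42 (adjusted p = 0.0333). In activated cells 0 of the 9 passed for ICOS in limma, where 6.94% of all genes passed, with 3 at an unadjusted p below 0.05. The Ccr8 difference there was -0.38 on 15 arrays, and its adjusted p on 16 arrays was 0.0793. The receptor calls for activation and for ICOS in fresh cells held on 15 arrays.

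Of 26 other chemokine ligands measured, 2 rose and 2 fell on activation, with a median of -0.01, where 31.2% of all genes passed. On 15 arrays 3 rose and 2 fell, with Cxcl5 (0.37, adjusted p = 0.0354) added. Ccl17, which shares CCR4 with Ccl22, rose by 1.29 (adjusted p = 0.0132) and Ccl9 by 0.48 (adjusted p = 6.48e-04). Ccl8, a monocyte attractant, fell by 0.93 (adjusted p = 0.0123) and Cxcl13, a B cell attractant of follicles, by 0.75 (adjusted p = 4.34e-04). Ccl17 was the higher on replicate 1 in all 4 activated groups, as Ccl22 was, with 8.11 and 6.35, 7.91 and 6.09, 7.57 and 6.25, and 8.40 and 7.17 in the order of subsets used above. For ICOS in fresh cells 0 of the 26 passed in limma, where 6.53% of all genes passed, with 1 at an unadjusted p below 0.05. The differences of Cxcl10 and Ccl20 there were 1.30 and 0.84. For ICOS in activated cells 2 of the 26 were higher, Cxcl5 (0.68) and Ccl9 (0.55), where 6.94% of all genes passed. On 15 arrays the differences of Cxcl10 and Ccl20 there were 1.65 and 1.51.

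Of 16 measured regulators of chemokine transcription and message decay, 2 rose and 7 fell on activation (median -0.20), where 31.2% of all genes passed, and 2 rose and 6 fell on 15 arrays. Irf4, a factor of effector Treg, rose by 0.69 and Nfkb2 by 0.38, while the decay factors Zfp36l2 and Zfp36 fell by 1.02 and 0.67, Nfatc1 by 0.77 and Nfkbiz by 0.68. For ICOS in fresh cells Irf4 (1.17) and Nfatc1 (0.44) were higher and Nfkbiz lower (-0.64). Of 16 cytokine and effector genes 7 rose and 3 fell on activation (median 0.61), and as many on 15 arrays, against 31.2% and 30.7% of all genes. The largest rises were those of Gzmb (3.46), Il5 (3.34), Il13 (3.02) and Il17a (2.26), and Ltb (-0.999), Cd40lg (-0.60) and Tnf (-0.41) fell. For ICOS in fresh cells Il10 (4.19), Gzmb (3.61) and Cd40lg (0.70) were higher. The genes named from these last 3 lists passed on 15 arrays too, except Nfatc1 for ICOS in fresh cells (adjusted p = 0.0546). Il17a, Csf2, Il2, Cd40lg and Tnf are also among the 9 markers of activated conventional CD4 cells.

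The genes whose levels ran most like each ligand were found by Pearson correlation of log2 level over the 16 arrays, given as a description with no test, since all arrays share the 8 groups and their replicates. Cxcl3 ran with Il17a (r = 0.976), Csf2 (0.969) and Iltifb (0.967), 2 cytokines of inflammatory T cells and a close copy of the Il22 gene, and the same 3 led on 15 arrays. Il17a read 11.62 and 11.56 in activated CD103pos ICOSpos cells, 10.80 and 6.42 in activated CD103neg ICOSpos cells and 5.79 to 6.93 elsewhere. The Cxcl3 correlations therefore rest on the same 3 arrays. Ccl1 ran with Cxcl10 (0.865), Sema6d (0.860) and Ccl20 (0.850), and on 15 arrays Il2 (0.847) took the place of Ccl20. In fresh CD103neg ICOSpos cells Il2 read 8.35 and 8.67, against 5.67 to 6.36 on the other fresh arrays, the same subset in which Ccl1 had its highest mean.

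**Figure D5:**
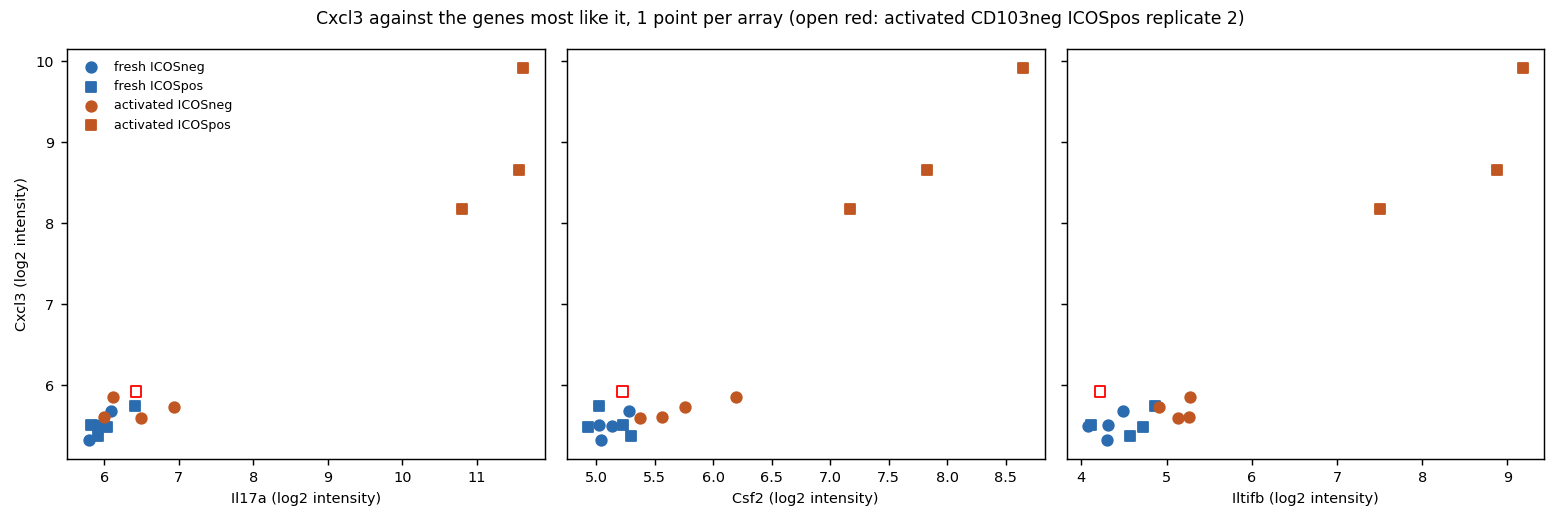
Log2 intensity of Cxcl3 (vertical axis) against that of Il17a, Csf2 and Iltifb (horizontal axes), 1 point for each of the 16 arrays, with circles for ICOSneg and squares for ICOSpos cells, blue for fresh and brown for activated. The 3 arrays with Cxcl3 above 8 hold the highest levels of all 3 genes, and activated CD103neg ICOSpos replicate 2 (open red) lies with the low arrays.

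Ccl3 ran with Gas2 (0.952), Smim3 (0.945) and Vcl (0.944), and on 15 arrays with Gas2 (0.967), Gprc5a (0.965) and Vcl (0.957). Vcl encodes vinculin, a cytoskeletal linker of adhesion sites. Ccl4 ran with Pdpn (0.967), which encodes podoplanin, AA467197 (0.942) and Ly6i (0.940). Pdpn led on 15 arrays too (0.969), followed by Klrc1 (0.945) and Filip1 (0.937). Ccl5 ran with Mta3 (0.936), Mr1 (0.930) and Prex1 (0.911), and Mr1 (0.941), the antigen-presenting molecule of MAIT cells, led on 15 arrays. Ccl22 ran with Rsph9 (0.920), Ltf (0.912) and Stk19 (0.895), and on 15 arrays Klc1 led (0.929). For Xcl1 the values were lower, with Tmem131l (0.842), Pou2af1 (0.834) and Car2 (0.832), and Car2 led on 15 arrays (0.895). Cxcl2 ran with Cnnm2 (0.905), Zbtb16 (0.900) and Kmo (0.879) on 16 arrays, and with the same 3 on 15. Zbtb16 encodes PLZF, a transcription factor of innate-like T cells.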

How the data were processed

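RNA of sorted mouse Treg was measured on 16 arrays, 2 for each of 8 groups, grouped by the labels' source names. The deposited values are log2 intensities of 35556 probe sets, made with RMA and the affy package per the submitters' processing notes. Their version numbers and options are not given in these sources. RMA usually corrects background and makes the arrays' distributions alike, so a shift shared by most genes would not be seen. The annotation names 21789 probe sets with 1 symbol, 1621 with several and 12146 with none. Only the first were used, with the brightest for a gene, and no dim genes were removed.

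Differences were tested with limma 3.58.1 in R 4.3.3, with 8 group means on all 16 arrays (8 residual degrees of freedom) and adjustment over 19938 genes in each of 13 comparisons. The script was tested on simulated data. All 8 ligands are named. From lists of receptors, other chemokine ligands, regulators and cytokines, up to 4 passing genes in a direction are named, and all receptors. Ccl17 levels, Il2 levels, single marker genes, chemokine and receptor genes called for ICOS in activated cells or only on 15 arrays, and genes at an unadjusted p were singled out after their values were seen. The members and lists were chosen with earlier results of these data known. Marker lists covered B cells, myeloid cells, CD8 and NK cells, activated conventional CD4 cells, naive and central T cells, T cells, erythroid cells and platelets, and Treg core genes. The Treg core list averaged 10.10 on the array that stood apart and 11.37 to 11.89 elsewhere, and the erythroid and platelet list 5.27 to 5.69. The naive and central list averaged 10.85 on the array that stood apart and 9.73 on its partner. Alternatives were each array left out, the replicate number as a block, a second quantile normalization, a filter on dim genes, another spread estimate, array weights, the mean over probe sets and fits within a state. Arrays carry no counting depth, and their number limits the precision. Promoters and their coordinates came from RefSeq tables of GRCm38.p6. The replicate numbers were not taken as pairs.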

Additional observations from a re-analysis of the deposited data

Results flagged for a closer look

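Cxcl3 had an ICOS difference that was larger in activated than in fresh cells by 2.45 on the log2 scale, by a test of the difference itself in limma (adjusted p = 0.0263), and it was therefore set out for a closer look. The arrays behind it are those of activated CD103pos ICOSpos cells, at 9.92 and 8.65, and replicate 1 of activated CD103neg ICOSpos cells, at 8.18, whose partner read 5.93.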

How the results depend on the processing

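Across 24 alternatives and 20 differences of single ligands, 373 fits kept the direction and the call, 80 lost the call, 10 gained it and 0 changed direction. The direction could change only where an array of the comparison was left out or the values were normalized again. Every other fit kept the same group means for each ligand, and only its error or adjusted p could move. Group sizes of 2 limit the calls near the threshold. Same-numbered replicates deviated together in 27 of 28 pairs of groups (correlations from -0.016 to 0.752, and from 0.114 within a state), short of every pair. With the replicate block, 2 ligands (Ccl3, Ccl22) passed on activation in CD103neg ICOSpos cells and 5 (Ccl3, Ccl5, Ccl22, Cxcl2, Cxcl3) in CD103pos ICOSpos cells, as all genes passing rose to 5.34% and 22.1%. Ccl5 alone, 1 ligand, passed for CD103 in fresh cells and for the CD103 difference between states, and Cxcl2 alone, 1 ligand, for ICOS in fresh cells, where 0.717%, 1.86% and 11.4% of all genes passed. The block without the array that stood apart was an alternative chosen after seeing the data. It left only the partner of that array in its group, so its calls are not counted by comparison here. With trend and robust estimation 0 passed on activation in CD103neg ICOSpos cells. With the arrays of 1 state alone, 2 passed for ICOS and 2 for the interaction in fresh cells, 1 for CD103 in fresh cells and 1 for ICOS in activated cells, where Cxcl2 and Cxcl3 were lost. The cause of these shifts was not tested.

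Omitting each array once, the ligands passing on activation numbered 3 to 5 for the mean of subsets (6 with all arrays), 1 to 2 in CD103neg ICOSneg, 1 to 3 in CD103pos ICOSneg, 0 to 1 in CD103neg ICOSpos and 1 to 3 in CD103pos ICOSpos cells. They numbered 1 to 4 for ICOS, 0 to 2 for CD103 and 0 to 1 for the interaction in activated cells. For the ICOS and CD103 differences between states they numbered 0 to 1 each. The filter on dim genes kept 10988 genes and left out Cxcl2. Over all genes, the number passing, with its range over the alternatives in brackets, was 6214 (5651 to 7665) for the mean activation difference. By subset it was 3238 (2062 to 5190) in CD103neg ICOSneg, 4036 (2832 to 5858) in CD103pos ICOSneg, 417 (91 to 1109) in CD103neg ICOSpos and 2803 (1362 to 4852) in CD103pos ICOSpos cells. In fresh cells it was 1301 (771 to 2815) for ICOS, 41 (4 to 531) for CD103 and 9 (0 to 194) for the interaction. In activated cells these were 1383 (443 to 2763), 143 (0 to 942) and 3 (0 to 201). For the differences between states they were 1339 (815 to 2638) for ICOS and 59 (8 to 432) for CD103.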
